A study of Homo sapiens with 10 samples.

Results

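The genes examined were 10 inflammatory cytokine and colony stimulating genes, IL6, LIF, CSF1, CSF2, CSF3, TNF, LTB, IL1A, IL1B and IL32, of 19970 protein-coding genes annotated on chromosomes 1 to 22 and X. They were given by name, and each was represented by the H3K27ac peaks that overlapped its gene body (GENCODE release 44, hg38) extended by 50 kb on each side, termed here the window of the gene. H3K27ac is a histone acetylation found at active promoters and enhancers. The mark was profiled by ChIP-seq in 2 established HER2 breast cancer cell lines, SKBR3 and MDA-MB-453, to ask how the ligand TWEAK acts on the enhancers of breast cancer subtypes. All cells were starved of serum for 8 h in optimem, and the treated ones then received 10 ng/ml TWEAK for 48 h, replenished at 24 h. In each line, 2 untreated and 2 TWEAK libraries gave a peak list each, 8 lists in all, while the 2 input samples were not used here. The labels only number the libraries of a group, whereas the methods of the study call its cell line ChIP-seq libraries biological replicates, and p-values measure the spread between these lists.

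The genes belong to 4 groups. IL-6 and LIF are cytokines that signal through the shared receptor subunit gp130, the product of IL6ST. CSF1, CSF2 and CSF3 encode the macrophage, the granulocyte-macrophage and the granulocyte colony stimulating factors, which drive the growth of myeloid cells. TNF and LTB, which encodes lymphotoxin beta, are members of the TNF family, as is TWEAK itself, whose receptor Fn14 activates NF-κB. IL1A and IL1B encode the founding IL-1 cytokines, and IL32 encodes a proinflammatory cytokine without a close relative among them. Many of these genes are known NF-κB targets in immune and epithelial cells.

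On these chromosomes the lists held between 43684 and 51687 peaks in SKBR3 and between 36148 and 37813 in MDA-MB-453, and the second TWEAK list of SKBR3 was the longest. Read counts were not used, so the depth of the libraries is unknown and no counting interval can be given. ERBB2, KRT8, KRT18, EPCAM and GATA3, which mark these epithelial cells, had a peak no more than 1 kb from an annotated start site (TSS) in 8 of 8 lists, whereas the leukocyte genes PTPRC, CD3E, CD14 and LYZ had none in any list. The stromal marker COL1A1 had such a peak in 8 lists and VIM in 7. Peaks of the 8 lists that overlapped by at least 1 bp merged into 76044 regions, of which 55 lay in the windows of the 10 genes and 22 had one of the genes as the nearest protein-coding TSS. The windows of TNF and LTB overlapped by 97.8 kb and held the same 5 regions, and those of IL1A and IL1B overlapped by 54.7 kb, so that the 10 genes stand for 8 separate stretches of the genome.

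The sequences shown here are those of the regions on which the results turn, at IL6 and TNF, upstream of LIF and CSF1, and at the only region gained with TWEAK. They were read from hg38 on the plus strand, and capitals mark matches to the NF-κB consensus, searched on both strands. The IL6 site is taken from the RefSeq promoter (GRCh38.p14) and its match begins 73 bases before the RefSeq start. The 30 bases given for TNF lie past the gene, with the match beginning 220 bases beyond its end. At LIF, 3 overlapping matches make up a single run of capitals. The stretches at IL6, TNF, LIF and CSF1 upstream were placed around a match, so a match in them was fixed by that choice. The gained region, shown around its midpoint, has no NF-κB match over its whole length.
IL6, chr7:22727117-22727146: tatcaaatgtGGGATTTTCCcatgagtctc
TNF, chr6:31578546-31578575: ctcagggcatGGGAATTTCCaactctggga
LIF upstream, chr22:30250806-30251105: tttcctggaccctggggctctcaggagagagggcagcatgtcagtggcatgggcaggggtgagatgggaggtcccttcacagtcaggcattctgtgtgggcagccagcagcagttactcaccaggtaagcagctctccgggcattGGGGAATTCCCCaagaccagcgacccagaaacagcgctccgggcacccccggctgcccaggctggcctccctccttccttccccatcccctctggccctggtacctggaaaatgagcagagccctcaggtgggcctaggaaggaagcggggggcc
CSF1 upstream, chr1:109892392-109892691: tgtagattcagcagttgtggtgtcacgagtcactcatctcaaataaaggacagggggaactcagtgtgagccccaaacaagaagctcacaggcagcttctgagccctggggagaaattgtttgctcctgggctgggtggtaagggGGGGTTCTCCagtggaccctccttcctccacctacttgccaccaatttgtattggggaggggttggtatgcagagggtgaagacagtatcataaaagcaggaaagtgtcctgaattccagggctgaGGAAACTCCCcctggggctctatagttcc
CSF1 gained region, chr1:109877354-109877653: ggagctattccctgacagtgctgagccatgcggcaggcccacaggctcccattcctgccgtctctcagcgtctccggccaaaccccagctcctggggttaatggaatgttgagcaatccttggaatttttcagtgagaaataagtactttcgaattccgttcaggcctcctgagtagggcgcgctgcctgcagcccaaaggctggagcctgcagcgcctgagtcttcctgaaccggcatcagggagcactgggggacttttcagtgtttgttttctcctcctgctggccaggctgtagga

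Start sites of these genes were largely free of H3K27ac peaks in both lines. A peak within 1 kb of a TSS was absent from all 8 lists for 8 of the 10 genes, whereas 32.0% of all protein-coding genes had none. The exceptions were IL6 and TNF, and both had such a peak in SKBR3 alone. In MDA-MB-453, 10 of 10 genes had no TSS peak in any of the 4 lists, against 38.4% of all genes, and in SKBR3 this held for 8, against 36.7%. IL6 alone had a TSS peak in all 4 lists of SKBR3, as did 56.0% of all genes, and no gene of the 10 did in MDA-MB-453, against 58.3%. A TSS peak was gained with TWEAK at 0 of the 10 genes in SKBR3, against 0.406% of all genes, and in MDA-MB-453, against 0.260%, and was lost at 0, against 0.631% and 0.120%. For 6 genes, IL1B, IL32, LIF, CSF2, CSF3 and LTB, not a base of the gene body was covered in any list, against 23.9% of all genes. A region missing from a list may have carried signal just under the caller's threshold. In bulk cells, fewer cells bearing the mark and less of it per cell cannot be told apart.

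The TSS peak of IL6 was the only such peak of the 10 genes that was present in all 4 SKBR3 lists and absent from all 4 MDA-MB-453 lists, a pattern found for 3.23% of all genes. The merged region, at chr7:22726155-22728137, covers exon and UTR of IL6 and also a start site of the neighbouring gene STEAP1B. In the untreated lists the peak was 576 and 911 bp wide, and in the TWEAK lists it was 1301 and 1983 bp wide. Its percentile, the rank of the authors' peak score within its own list with 100 at the top, was 19.6 and 53.5 in the untreated lists and 68.3 and 80.7 in the TWEAK lists. The authors' fold enrichment over background was 2.57 and 3.93 without and 4.70 and 6.08 with TWEAK. For all 3 measures both TWEAK lists lay above both untreated lists, with no overlap. The peak of the first untreated list was among the weakest, with a −log10 q of 1.63, and was no longer held when the threshold was stricter or the lists were of equal size.

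The IL6 peak reached further at both ends in the TWEAK lists. Relative to the RefSeq start, it began at −582 bp in both untreated lists and at −886 and −1045 bp in the TWEAK lists. GENCODE places the IL6 gene start 1316 bp before the RefSeq start, and the peak lay between the 2 positions in the first untreated list, where it ended 7 bp short of the RefSeq start. In the other 3 SKBR3 lists it ran over the RefSeq start, by 328 bp in the second untreated list and by 414 and 937 bp in the TWEAK lists. The NF-κB match shown above, at chr7:22727127-22727136, lay inside the peak in 4 of 4 SKBR3 lists, and an AP-1 match (TGACTCA or its reverse complement) began at position 22726917. Of the gene body, 9.41% and 14.9% were covered in the untreated lists and 21.3% and 46.7% in the TWEAK lists. With TWEAK against untreated, the percentile of the region was higher by 38.0 on average, or by 21.0 without the first untreated list, and the exact permutation p was 0.333, the smallest that 2 lists against 2 allow. Among genes with a TSS peak in all 4 SKBR3 lists, the percentile was higher in both TWEAK lists for 9.95% and lower for 24.9%.

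MDA-MB-453 showed another picture at IL6. A region at −18.2 to −16.7 kb from the gene start, in an intron of STEAP1B, was held by 4 of 4 MDA-MB-453 lists and by none of SKBR3. Its percentiles were 46.0 and 55.3 in the untreated lists and 62.9 and 57.2 in the TWEAK lists, and it had no NF-κB or AP-1 match. In the same window, 3 more regions were each held by the second SKBR3 TWEAK list alone. They account for most of the 6.40 kb that this list covered in the IL6 window, against 0.576 and 0.911 kb in the untreated lists and 1.30 kb in the first TWEAK list. Without the second TWEAK list, the gain of 3.11 kb in covered length with TWEAK became 0.558 kb, and without the first it became 5.66 kb.

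TNF, the founding member of its family, was covered from end to end only in the TWEAK lists of SKBR3. In the first untreated list, a peak of 613 bp at the TSS, with a percentile of 33.9, was separate from a peak of 2346 bp over the end of the gene, with a percentile of 81.1. The second untreated list held only the latter, 1905 bp wide and with a percentile of 61.3. In the TWEAK lists, a single peak of 4686 and of 4843 bp ran over the whole gene, with percentiles of 86.3 and 90.0. The share of the TNF gene body covered was 46.2% and 30.8% in the untreated lists and 100% and 100% in the TWEAK lists. The merged region, chr6:31575194-31580036, runs from −0.371 to 4.47 kb from the TSS and was absent from 4 of 4 MDA-MB-453 lists.

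**Figure D1:**
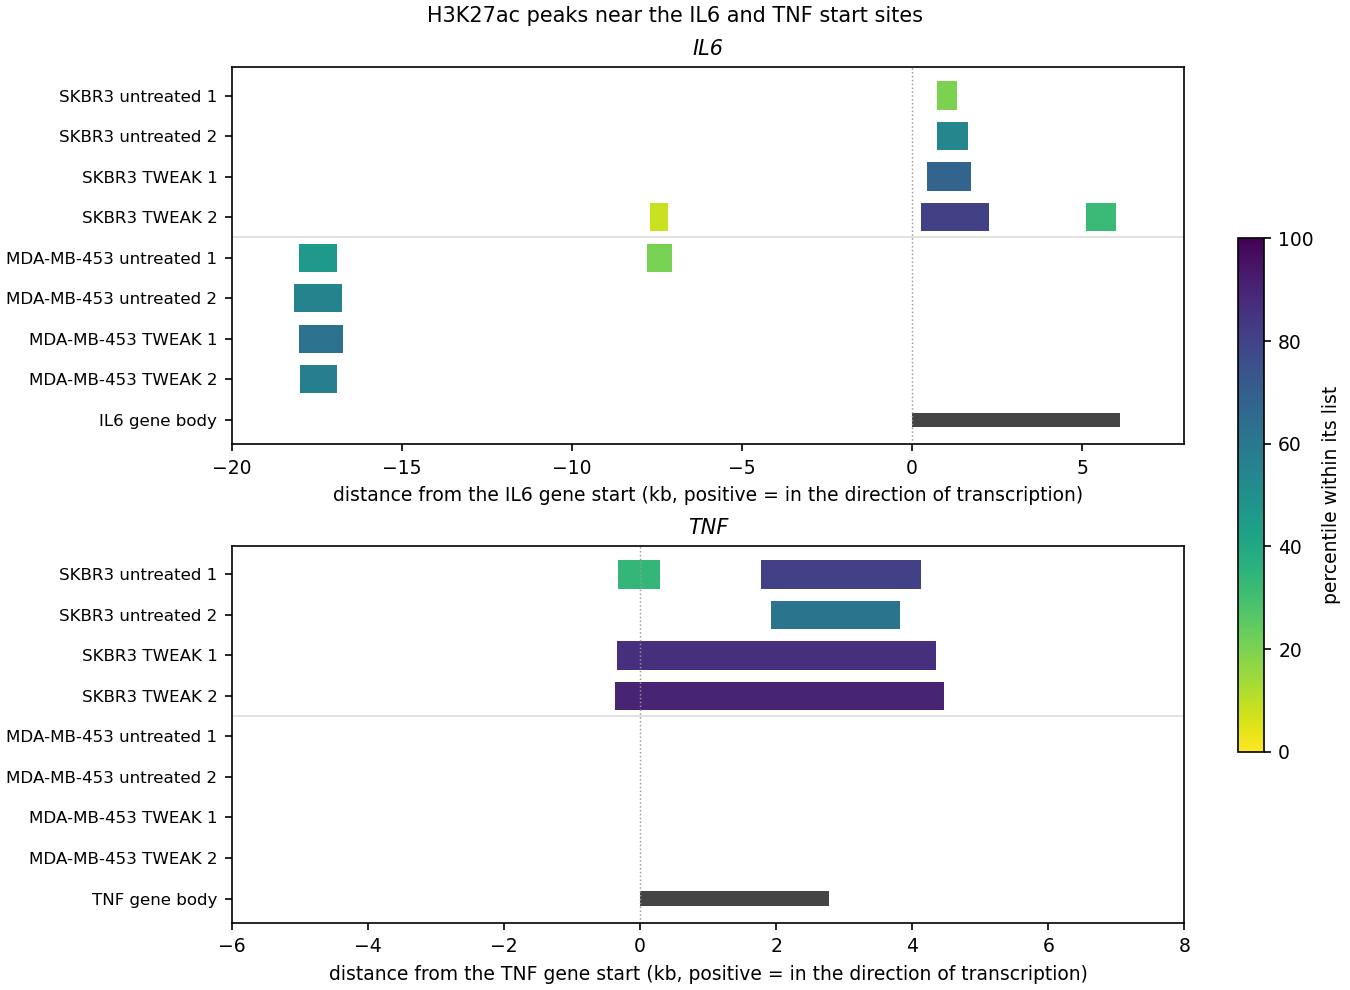
H3K27ac peaks around the start sites of IL6 and TNF, drawn by distance from the gene start in kb, with a row for each of the 8 lists and colour giving the percentile of a peak within its list. The IL6 peak widens from 576 and 911 bp to 1301 and 1983 bp with TWEAK in SKBR3, the TNF peaks of SKBR3 join into peaks of 4686 and 4843 bp, and the MDA-MB-453 rows are empty at both start sites.

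At the TNF region, width and percentile were higher in both TWEAK lists than in both untreated lists. The difference in percentile averaged 17.0, or 7.08 without the second untreated list and 26.8 without the first (exact permutation p = 0.333, the smallest possible). The share of the gene body covered was higher in both TWEAK lists of SKBR3 for IL6 and TNF among the 10 genes, as for 12.8% of all genes, and lower for 0, as for 10.6%. In MDA-MB-453 it was higher for 0 and lower for 0, against 12.3% and 11.3%. The region held 2 NF-κB matches, at positions 31577371 and 31578556, and the 250 bases before the TNF start site held neither NF-κB nor AP-1 matches. Matches over the whole length of a region were not counted for regions elsewhere. LTB, whose TSS lies 6.96 kb from that of TNF, had no peak within 1 kb of its TSS or in its body, so the values of its window are those of TNF. LTA, which encodes lymphotoxin alpha and starts 3.51 kb from TNF, had no TSS peak in any list.

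LIF had the greatest covered length of the 10 genes in SKBR3, and none of it lay in the gene itself. Part of it belonged to the neighbours TBC1D10A and CASTOR1, which were covered in both lines. The window was covered over 30.6 and 30.8 kb in the untreated lists and over 35.6 and 32.4 kb in the TWEAK lists of SKBR3. In MDA-MB-453 the covered length was 7.72 and 7.14 kb without and 7.68 and 6.71 kb with TWEAK. The mean of the 4 lists, untreated and TWEAK together, was 32.3 ± 2.30 kb (SD, n = 4) in SKBR3, higher than for 91.4% of all genes. It was 7.31 ± 0.481 kb (SD, n = 4) in MDA-MB-453. The lines did not overlap, with an exact permutation p of 0.0286, the smallest that 4 lists against 4 allow, and an adjusted p of 0.0450 over all 19970 genes. Without any single MDA-MB-453 list, the adjusted p was between 0.0576 and 0.0577, as it was for CSF1 and IL1A.

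Of the 5 regions nearest to LIF, 3 were held by 4 of 4 SKBR3 lists but none of MDA-MB-453. The region upstream of the gene, at −7.73 to −2.97 kb, had percentiles of 86.3 and 81.7 in the untreated lists and of 91.7 and 92.6 in the TWEAK lists. It contains the run of NF-κB matches shown above. At 48.3 to 51.6 kb beyond the start, the percentiles were 78.0 and 43.3 without TWEAK and 95.2 and 95.0 with it, and the fold enrichment was 6.47 and 3.97 without and 17.4 and 14.9 with it. This region became the highest ranked peak of the LIF window in both TWEAK lists, whereas in the other 6 lists the top peak lay at TBC1D10A. The third, at 10.2 to 12.4 kb, went the other way, with percentiles of 57.4 and 61.1 without and 43.5 and 38.0 with TWEAK.

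The remaining LIF regions were shared with MDA-MB-453. A domain at 31.7 to 45.1 kb had percentiles of 85.8 and 79.9 without and 87.8 and 89.3 with TWEAK in SKBR3, and of 61.0 to 69.2 in MDA-MB-453. It consisted of 2 peaks in each untreated list and of a single peak of 13380 and of 12229 bp in the TWEAK lists. At 16.7 to 23.1 kb the lists of the treatments overlapped, with percentiles of 68.5 and 71.3 without and of 60.7 and 69.7 with TWEAK in SKBR3, and 3 MDA-MB-453 lists held the region at 11.4 to 18.9. The covered length of the LIF window was higher in both TWEAK lists than in both untreated lists of SKBR3 by 3.28 kb on average, or by 1.68 kb without the first TWEAK list. In MDA-MB-453 the lists of the 2 treatments overlapped, and the mean difference was −0.235 kb.

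**Figure D2:**
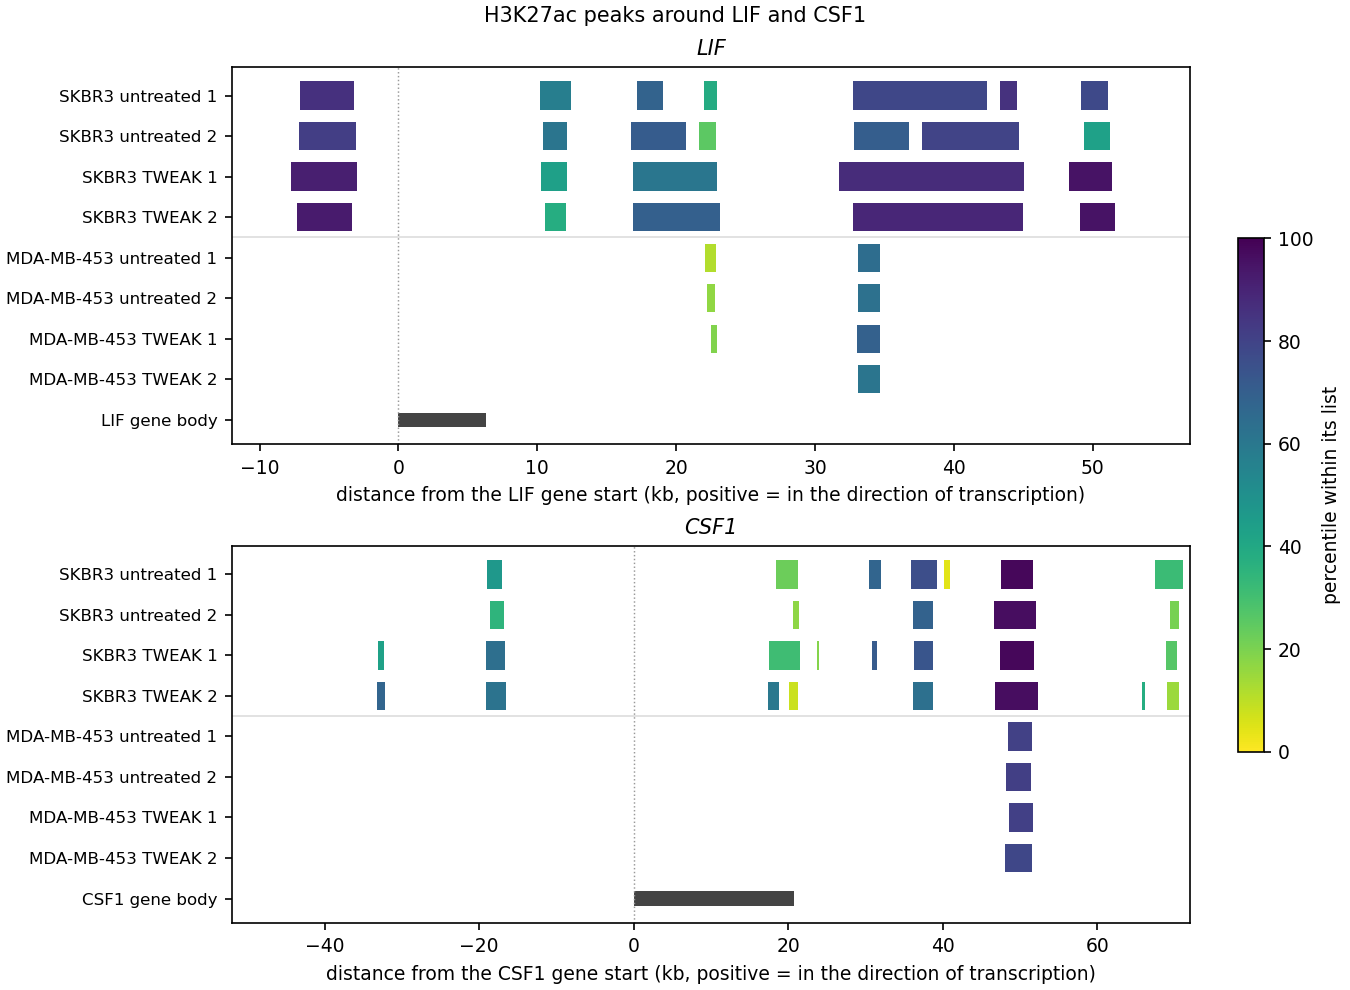
H3K27ac peaks around LIF and CSF1, drawn by distance from the gene start in kb, with a row for each of the 8 lists and colour giving the percentile of a peak within its list. The peaks lie outside the LIF gene body, the SKBR3 rows hold more peaks than the MDA-MB-453 rows at both genes, and the region at −33.2 to −32.2 kb from CSF1 appears only in the 2 TWEAK rows of SKBR3.

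CSF1 was marked in SKBR3 and almost unmarked in MDA-MB-453. The covered length was 17.9 and 11.7 kb without and 16.8 and 16.4 kb with TWEAK in SKBR3, and 3.11, 3.23, 3.07 and 3.60 kb in the 4 MDA-MB-453 lists. The means were 15.7 ± 2.74 kb and 3.25 ± 0.241 kb (SD, n = 4 each; exact permutation p = 0.0286, adjusted p = 0.0450). All of the MDA-MB-453 length came from a region at 46.6 to 52.3 kb whose nearest TSS is AHCYL1, and no region nearest to CSF1 was held by an MDA-MB-453 list. The window of CSF1 holds no other protein-coding gene.

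The only region of the 10 windows gained with TWEAK, that is held by both TWEAK lists but no untreated one, lay at −33.2 to −32.2 kb from CSF1, at chr1:109877001-109878006. It was 890 and 1006 bp wide in the TWEAK lists of SKBR3, with percentiles of 42.6 and 67.7. Over all regions of SKBR3, 4.61% were gained and 1.40% lost, and of the 49 SKBR3 regions in the windows 1 was gained and 2 were lost. Both lost regions lay in the IL32 window, at the starts of the zinc finger genes ZNF205 and ZNF213, with percentiles of 10.0 and 4.26 and of 22.4 and 10.9 in the untreated lists. In MDA-MB-453, 0 of 30 window regions were gained and 0 lost, where 1.33% and 1.30% of all regions were.

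Other CSF1 regions in SKBR3 also ranked higher with TWEAK. The upstream region at −19.1 to −16.6 kb had percentiles of 46.8 and 34.9 in the untreated lists and of 64.0 and 61.9 in the TWEAK lists, and its peaks were 2005 and 1835 bp wide without and 2450 and 2568 bp with TWEAK. It held 5 NF-κB matches, of which those beginning at positions 109892703 and 109892704 overlap. Here too, matches over the whole length of a region were not counted for regions elsewhere, so no share stands beside this number. A region at 17.3 to 21.6 kb, which overlaps exon and UTR of CSF1, had percentiles of 22.4 and 16.9 without and of 31.1 and 60.1 with TWEAK. At 35.9 to 39.2 kb the lists overlapped, with 76.2 and 68.9 without and 73.6 and 63.6 with TWEAK. Over the 8 lists and 18547 genes, the covered length that followed that of CSF1 most closely was that of SPEN, CLIP1 and FOXK2, each with Pearson's r of 0.998 to 0.999, points that share library and line.

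CSF2 and CSF3 had no peak in the gene body, and the regions nearest to them lay outside the genes. At CSF2, a region at 29.1 to 30.6 kb beyond the start was held by 8 of 8 lists, with percentiles of 37.5 and 25.2 without and of 39.7 and 46.8 with TWEAK in SKBR3. In MDA-MB-453 the same region had percentiles of 5.90 and 22.7 without and of 25.2 and 29.9 with TWEAK. The percentile was thus higher in both TWEAK lists than in both untreated lists of either line, although all values lay in the lower part of their lists. At a q-value under 1e-05 this region was no longer held. The differences with TWEAK in covered length and percentile of the CSF2 window were then 0 in either line. At CSF3, a region at −5.49 to −3.61 kb was held by the 4 MDA-MB-453 lists alone, with percentiles of 79.8 and 83.0 without and of 78.3 and 77.3 with TWEAK.

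The covered length of the CSF3 window was 6.82 and 8.74 kb without and 5.22 and 5.65 kb with TWEAK in SKBR3. It thus fell by 2.34 kb on average, and without the second untreated list it fell by 1.38 kb. In MDA-MB-453 it was 9.52 and 9.63 kb without and 10.2 and 9.86 kb with TWEAK. Means were 6.61 ± 1.57 kb in SKBR3 and 9.81 ± 0.309 kb in MDA-MB-453 (SD, n = 4 each; exact permutation p = 0.0286, adjusted p = 0.0450). The SKBR3 length lay at PSMD3, MED24 and THRA, neighbours of CSF3, and the nearest SKBR3 peaks, at MED24, began between 5.78 and 5.87 kb from the start of CSF3. CSF3 lies 327 kb from ERBB2, the gene of the HER2 receptor, which is amplified in HER2 breast cancer.

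IL1A and IL1B were sparsely marked, and IL1B had the shortest mean covered length of the 10 genes in both lines. A region inside IL1A, at 4.29 to 5.46 kb from its TSS, was held by 4 of 4 MDA-MB-453 lists and by no SKBR3 list, with percentiles of 52.2 and 51.7 without and of 39.9 and 34.4 with TWEAK. Another region, at −12.2 to −11.1 kb from IL1A, was held by 3 SKBR3 lists alone, with percentiles of 37.5, 28.0 and 16.4, and was missing from the second TWEAK list. The IL1A window was covered over 1.75 ± 0.236 kb in SKBR3 and 3.75 ± 0.300 kb in MDA-MB-453 (SD, n = 4 each; exact permutation p = 0.0286, adjusted p = 0.0450). Much of that length lay at the promoter of CKAP2L, held by all 8 lists. The region nearest to IL1B was 275 bp wide and was found in the second SKBR3 TWEAK list alone.

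IL32 had no region of its own, since each of the 11 regions in its window was nearest to another gene. Its window covered 18.6 and 17.4 kb without and 11.7 and 13.9 kb with TWEAK in SKBR3, lower in both TWEAK lists, and between 16.3 and 17.6 kb in the MDA-MB-453 lists. In SKBR3 the covered length fell by 5.14 kb on average, whereas within 20 kb of the gene it fell by 0.119 kb. The highest ranked peak of the window in SKBR3 lay at TNFRSF12A, the gene of the TWEAK receptor Fn14, whose TSS is 46.9 kb from that of IL32, and at its neighbours CLDN6, HCFC1R1 and THOC6. Its percentiles were 93.9 and 93.6 without and 95.4 and 96.5 with TWEAK in SKBR3, and it was held by all 8 lists.

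**Figure D3:**
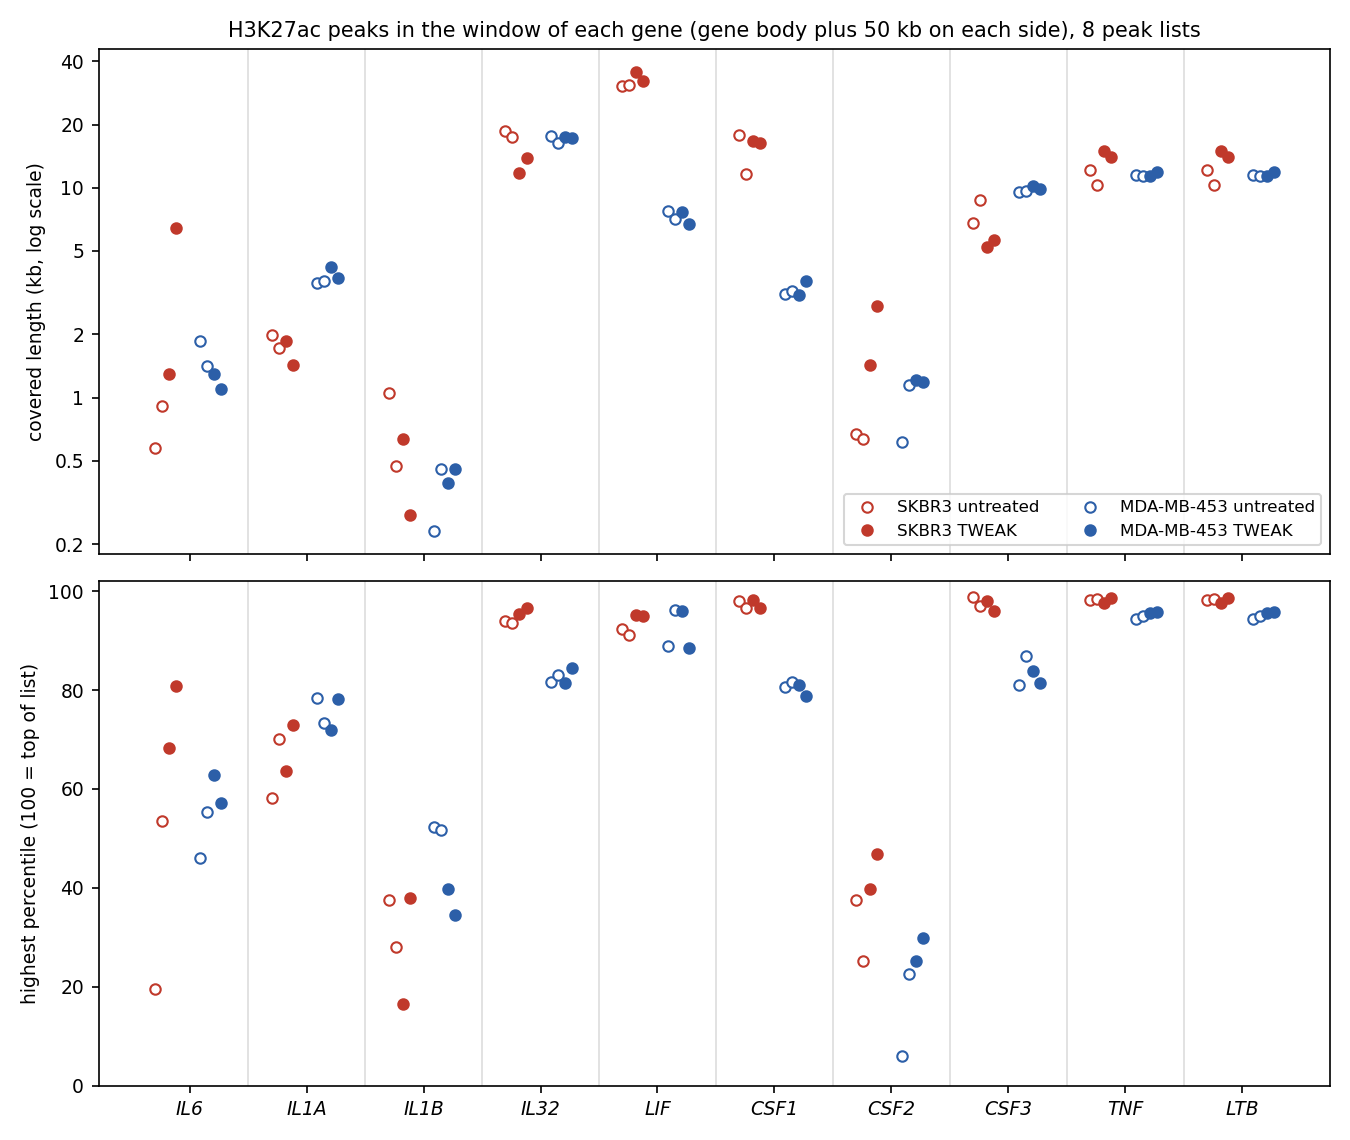
Covered length in kb (log scale, upper panel) and highest percentile (lower panel) of the H3K27ac peaks in the window of each gene, with a point for each of the 8 lists, open for untreated and filled for TWEAK. SKBR3 points lie above all MDA-MB-453 points in covered length at LIF and CSF1 and below them at IL1A and CSF3, and TNF and LTB show the same values.

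Over the 10 genes, the covered length of the window was higher in both TWEAK lists of SKBR3 for 5 genes, IL6, LIF, CSF2, TNF and LTB, against 17.8% of all genes. It was lower for 2, IL32 and CSF3, against 13.0%. The 5 genes stand for 4 separate windows, as TNF and LTB share theirs. In MDA-MB-453 it was higher for 3, IL1A, CSF2 and CSF3, against 17.2%, and lower for IL6, against 14.7%. The median change was 1.615 kb over the 10 genes and 0 over all genes in SKBR3, and 0.179 kb and 0 in MDA-MB-453.

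The highest percentile of the window was higher in both TWEAK lists for 4 genes in SKBR3, IL6, IL32, LIF and CSF2, against 14.5% of all genes, and lower for 0, against 15.6%. In MDA-MB-453 it was higher for 4, IL6, CSF2, TNF and LTB, against 21.0%, and lower for IL1B, against 13.3%. TNF and LTB were called there by the same peak, at PRRC2A. These values often belonged to a neighbour, since the top peak of the window was nearest to the named gene in 8 of 8 lists only for IL6 and CSF2. It was so in 2 lists for LIF, in 1 for IL1B and in none for the other 6 genes.

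The regions nearest to one of the genes were counted apart from those of the neighbours, although the IL6 region also covers a start site of STEAP1B. Of these regions, 11 were held by all 4 SKBR3 lists: 5 at LIF, 3 at CSF1 and 1 each at IL6, CSF2 and TNF. The percentile was higher in both TWEAK lists than in both untreated lists for 8 of the 11, against 20.9% of all 30481 regions held by the 4 lists, and lower for 1, against 17.3%. Covered length was higher for 7, against 20.7%, and lower for 0, against 15.7%. With lists cut to equal size the percentile was higher for 8 and lower for 2, against 15.6% and 24.4%. Regions of the same gene share a domain and are not independent, and this selection was made after the values were seen.

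**Figure D4:**
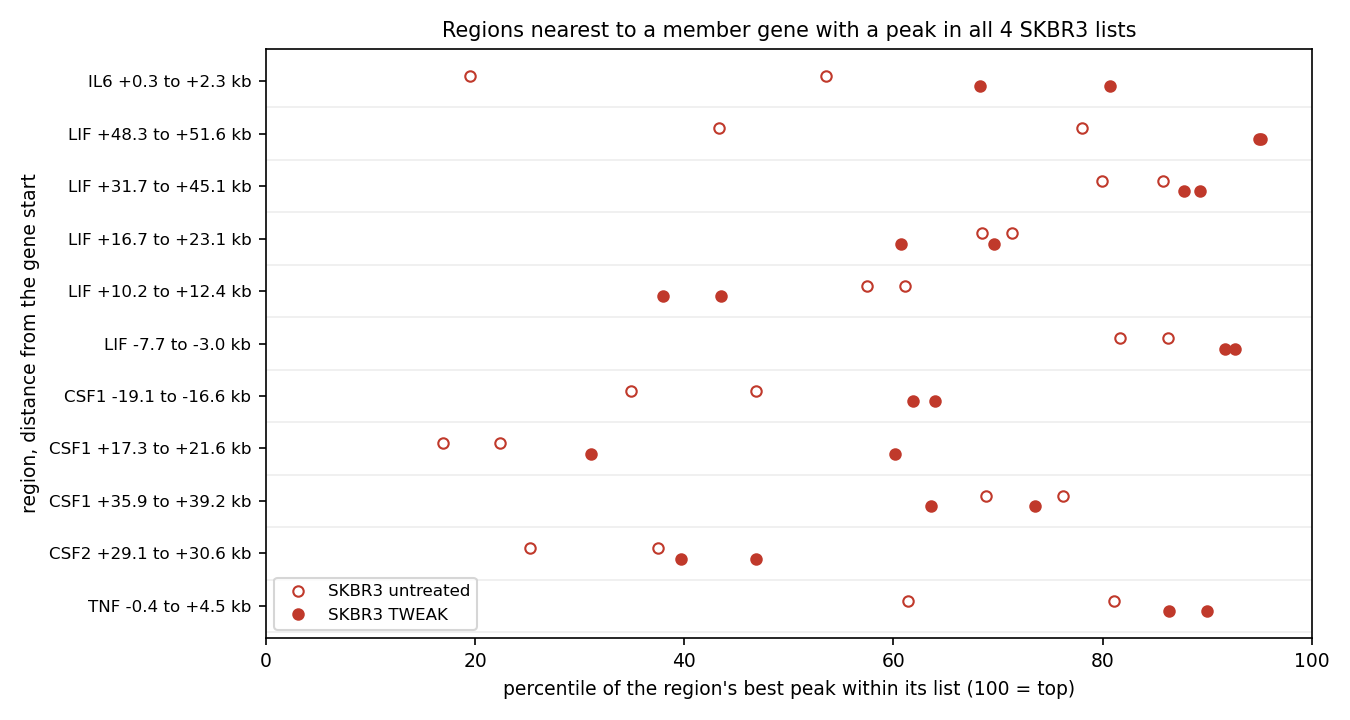
Percentile of the best peak within its list, for the 11 regions nearest to one of the genes and held by all 4 SKBR3 lists, with open points for untreated and filled points for TWEAK lists and rows labelled by distance from the gene start. Both filled points lie to the right of both open points in 8 rows and to the left in 1 row, the LIF region at 10.2 to 12.4 kb.

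An NF-κB match lay in the central 1000 bp of 5 of these 11 regions, and in 15.0% of all regions held by the 4 SKBR3 lists. The run of matches shown upstream of LIF lies outside the central 1000 bp, so that region is not among the 5. The TNF region counts by its match at position 31577371, not by the one shown. An AP-1 match lay in 3 of the 11, and in 21.7% of the same regions. In the 250 bases before a RefSeq start site, IL6, IL32 and LTB had an NF-κB match, as did 5.21% of the 35116 promoters in the table, and IL1A had an AP-1 match, as did 4.20%. Of these 4 genes, IL6 alone had a peak at its TSS. LIF, CSF1 and CSF3 had no promoter in the set and were not searched. IL1A, IL32 and LTB had more than 1 promoter and were counted on any match, whereas the shares count promoters singly. Matches are letters in the sequence and say nothing of binding.

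Between the lines, the covered length of the window was higher in SKBR3 for 2 of the 10 genes, LIF and CSF1, where 40.8% of all genes were higher at an adjusted p under 0.05. It was higher in MDA-MB-453 for IL1A and CSF3, where 22.8% of all genes were. The highest percentile was higher in SKBR3 for 5 genes, IL32, CSF1, CSF3, TNF and LTB, against 31.9% (exact permutation p = 0.0286, adjusted p = 0.0497), and for 0 in MDA-MB-453, against 25.6%. These adjusted values lie close to the threshold. TNF and LTB hold the same top peak, and in none of the lists was the top peak of these 5 genes nearest to the gene itself. At CSF3 the difference depends on the measure. Its top peak, at PSMD3, had fold enrichments of 6.69 to 9.18 in SKBR3 and of 7.01 to 8.93 in MDA-MB-453, which overlap. At the top SKBR3 regions of IL32, CSF1, TNF and LTB, fold enrichment was higher in SKBR3 without overlap. For TNF and LTB that region lay at DDX39B, whereas the top MDA-MB-453 region of their windows lay at PRRC2A. At PRRC2A the fold enrichment went the other way, with 10.1 to 12.9 in SKBR3 and 19.2 to 20.2 in MDA-MB-453. Without the first untreated or the first TWEAK list of SKBR3, or without any MDA-MB-453 list, the adjusted p of the percentiles of these 5 genes was between 0.0502 and 0.0665, and without any MDA-MB-453 list that of the covered length of CSF3 was between 0.0908 and 0.0913. Of the 55 window regions, 10 (18.2%) were held by all SKBR3 and no MDA-MB-453 lists, 4 (7.27%) by all MDA-MB-453 and no SKBR3 lists and 18 (32.7%) by all 8, against 14.1%, 10.5% and 23.3% of all regions.

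Other ligands of the same families gave counts of their own in SKBR3. Of 23, the covered length of the window was higher with TWEAK for 13 and lower for 2, and of 16 receptor genes it was higher for 4 and lower for 1, where 17.8% of all genes were higher and 13.0% lower. The 13 ligands stand for 11 separate windows, and LTA, OSM and IL3 lie in the windows of TNF, LIF and CSF2. A TSS peak was held by all 4 SKBR3 and no MDA-MB-453 lists at IL1F10, an IL-1 family ligand, TNFSF9, the ligand of 4-1BB, CSF1R, the receptor of CSF1, and CSF2RB, the shared beta chain of the CSF2 receptor. The IL1F10 peak had percentiles of 4.32 and 8.78 without and of 57.4 and 66.5 with TWEAK. CSF1R ranked at 97.0 and 97.5 without and at 97.4 and 98.3 with TWEAK.

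The reverse pattern, a TSS peak in all MDA-MB-453 lists alone, was found at TNFSF10, the gene of the death ligand TRAIL, with percentiles of 72.5 to 78.2, and at OSMR, the oncostatin M receptor, with 69.3 to 76.2. Across all genes it was found for 3.22%. IL1R2, which encodes the decoy receptor of IL-1, was the only ligand or receptor gene whose TSS peak was gained with TWEAK in SKBR3, with percentiles of 0 and 0 without and of 18.6 and 64.5 with it. Such a gain was seen for 0.406% of all genes. At IL6ST, the gp130 gene, the SKBR3 percentiles were 90.5 and 79.5 without and 96.1 and 95.7 with TWEAK, and those of MDA-MB-453 were 26.8 and 15.1 without and 32.7 and 46.4 with it.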

How the data were processed

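H3K27ac was profiled in untreated and TWEAK-treated SKBR3 and MDA-MB-453 cells, with 2 libraries per group. Bowtie2 alignment to hg38, MACS2 peak calling against input and blacklist removal were done by the authors, library by library. A line of a deposited list holds a peak's position, a score in whole numbers, its fold enrichment (a ratio), −log10 p-value and −log10 q-value. The score is the whole-number part of the −log10 q-value times 10 for nearly all peaks, and the lowest deposited −log10 q was 1.00. The calling options and tool versions are not given in the sources used here. The study compared signal with DiffBind, which needs reads, so peak presence, covered length and rank within a list were compared in its place. The number of per-sample value columns left unmapped was 0.

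Computation used Python 3.11.15 with numpy 2.4.6 and pandas 2.3.3. Percentiles are average ranks of the score within a list, and a window without a peak was set to 0. A value was called with TWEAK when both TWEAK lists lay beyond both untreated lists. Lines were compared by an exact permutation test, two-sided, over the 70 assignments of lists, adjusted by the Benjamini-Hochberg method over 19970 genes; 2 lists against 2 allow 6 assignments. Line means and SDs took the untreated and TWEAK lists of a line together, so an SD spans both treatments. The functions were tested on simulated data.

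All 10 genes were described. Regions were named when within 1 kb of a gene's TSS, gained or lost with TWEAK, or nearest to a gene with the highest mean percentile, and other family genes when their TSS peak was line specific, gained or lost. IL6ST, LTA and the remaining regions nearest to a gene were named after their values were seen. The genes and lists were chosen with earlier results of these data known. Gene body coverage, the percentile of TSS peaks, the count over regions nearest to a gene and the LIF, CSF1 and TNF sequences were chosen after the values were seen. Promoters came from RefSeq (GRCh38.p14) and held 7 of the 10 genes, all but LIF, CSF1 and CSF3. Alternatives were a q-value under 1e-05, lists of equal size, windows of 20 and 100 kb, ranks by fold enrichment, a TSS distance of 250 bp, the gene start alone, an overlap of 50%, merging across 1 kb, a block for the replicate number, and each list left out in turn.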

Additional observations from a re-analysis of the deposited data

Results flagged for a closer look

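The covered length of the IL6 window in SKBR3 had a list far from the others, the second TWEAK list with 6.403 kb. That of the CSF2 window in MDA-MB-453 had the first untreated list with 0.613 kb. In all, 40 groups of 4 lists were looked at, and chance sets a list apart in about 1 of 20 groups.

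Covered length moved in opposite directions with TWEAK in the 2 lines at 2 genes, with lists that did not overlap in either line. At IL6 the mean difference was 3.1085 kb in SKBR3 and −0.436 kb in MDA-MB-453. The SKBR3 value was 0.558 kb without the second TWEAK list and 5.66 kb without the first. The MDA-MB-453 value was −0.213 kb without the first untreated list, −0.659 kb without the second and −0.061 kb at a q-value under 1e-05. At CSF3 it was −2.3425 kb in SKBR3 and 0.465 kb in MDA-MB-453. These became −1.38 kb without the second untreated list of SKBR3 and 0.285 kb without the first TWEAK list of MDA-MB-453. The contrast at IL6 held for covered length only. The highest percentile of its window was higher in both TWEAK lists of either line, on average by 38.0 in SKBR3 and 9.37 in MDA-MB-453. Part of the MDA-MB-453 fall in covered length was a 750 bp peak with a percentile of 20.5. Of the MDA-MB-453 lists, only the first untreated one held that peak. The differences between the lines in these changes were not tested.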

How the results depend on the processing

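Depth is unknown, peaks were called separately in each list, and 2 lists against 2 cannot pass the threshold, so counts rest on lists that do not overlap; the cause of the changes given here was not tested. At a q-value under 1e-05, counts of the 10 genes were 0 for covered length higher with TWEAK in MDA-MB-453, 2 for the highest percentile lower there, 0 and 0 for covered length higher in either line, 0 for the highest percentile higher in SKBR3, and 0 for a TSS peak in all SKBR3 lists and for one specific to SKBR3; 0 regions were lost in SKBR3, 2 were lost in MDA-MB-453, 4 were held by SKBR3 alone, and 0 of the regions nearest to a gene had a lower percentile with TWEAK. The covered length of IL1A with TWEAK in MDA-MB-453 then turned to −0.34 kb. At CSF2 the differences with TWEAK became 0 in both lines. The count of genes with higher covered length with TWEAK in SKBR3 stayed at 5, but no longer included CSF2. With lists of equal size, 4 genes had lower covered length and 1 a lower percentile with TWEAK in SKBR3, 2 a lower percentile in MDA-MB-453, 0 a higher percentile in SKBR3 than in MDA-MB-453 and 0 a TSS peak in all SKBR3 lists; 1 region was lost in SKBR3 and 2 nearest regions had a lower percentile. Within 20 kb, covered length was lower with TWEAK for 1 gene of SKBR3 and 2 of MDA-MB-453, the percentile was higher for 1 and lower for 2 in MDA-MB-453, 0 genes were called between lines by either measure, and 0 regions were gained and 0 lost in SKBR3; the percentile changed by −1.50 with TWEAK at IL32 in SKBR3 and was −3.49 in SKBR3 minus MDA-MB-453 at CSF3. Within 100 kb, 7 genes had higher covered length and 2 a higher percentile with TWEAK in MDA-MB-453, 5 had higher covered length in SKBR3, 1 had it in MDA-MB-453, and 3 had a higher percentile in SKBR3; 3 regions were gained with TWEAK by SKBR3 and 2 by MDA-MB-453, and 16 and 8 were held by SKBR3 or MDA-MB-453 alone. At 100 kb the change of the IL6 percentile with TWEAK in MDA-MB-453 was −0.533, and the covered length in SKBR3 minus MDA-MB-453 was 1.07 kb for IL1A, −1.59 kb for IL1B, 18.1 kb for IL32 and 13.6 kb for CSF3. Ranks by fold enrichment gave 2 genes with a lower percentile with TWEAK in MDA-MB-453 and 0 with a higher one in SKBR3 than in MDA-MB-453, and an overlap of 50% gave 3 gained regions in SKBR3. A TSS distance of 250 bp, the gene start alone and merging across 1 kb moved no count by over 1.5 times.

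With the replicate number as a block, 4 genes had lower covered length in SKBR3, 2 had it in MDA-MB-453, 1 had a lower percentile in SKBR3, and 3 and 1 of the regions nearest to a gene had a lower percentile and covered length, against 30.1% and 26.2% of all regions, while 8 and 8 were higher, against 32.3% and 32.6%; no other count moved by over 1.5 times. The labels tie lists of the same number by nothing else. Their deviations over genes correlated at 0.467 for SKBR3 and at −0.0349 for MDA-MB-453, and 2 pairs each do not settle the pairing.

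Leaving out each list in turn gave these ranges. With TWEAK in SKBR3, covered length was higher for 5 to 6 genes and lower for 2 to 5 (5 without the second untreated list), and the percentile was higher for 4 to 8 (8 without the first TWEAK list) and lower for 0 to 3 (3 without the second TWEAK list). In MDA-MB-453 covered length was higher for 3 to 7 (7 without the first TWEAK list) and lower for 1 to 4 (4 without the second TWEAK list), and the percentile was higher for 4 to 5 and lower for 2 to 4 (4 without the first untreated list). Between lines, covered length was higher in SKBR3 for 0 to 4 and in MDA-MB-453 for 0 to 2, with 0 and 0 without any MDA-MB-453 list, and the percentile was higher in SKBR3 for 0 to 5 and in MDA-MB-453 for 0 to 1. A TSS peak in all SKBR3 lists, and one specific to SKBR3, were found for 1 to 2 genes, with 2 when the second untreated list was left out. Regions gained in SKBR3 numbered 1 to 8 (8 without the first TWEAK list) and lost ones 3 to 4, and both numbered 0 to 1 in MDA-MB-453. Of the 11 nearest regions, 8 had a higher and 2 a lower percentile in every case, and covered length was higher for 7 to 9 and lower for 0 to 2. With a list fewer the call is easier to meet, and the share of all regions with a higher percentile was 31.4% to 41.8%, against 20.9% with all lists, and with higher covered length 31.6% to 41.8%, against 20.7%.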
